A study of Mus musculus with 2 samples.

Results

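Genes of the semaphorin, plexin, ephrin, Eph, Slit, Robo, netrin and Unc5 families were measured in sorted PDGFRa-positive cells of mouse inguinal white adipose tissue. Members were taken by gene symbol from the deposited table, which gave 61 genes of 23647 in all. The sorted cells came from the stromal vascular fraction, which is what remains of minced fat once collagenase has freed the cells and the floating adipocytes are gone. Poly(A) RNA was sequenced from 1 library of Sox9 PreASKO mice and 1 library of Sox9 floxed mice. By the labels, mice of both genotypes were male, 3 weeks old and treated with doxycycline at postnatal day 1. The series design text gives 3 mice pooled. The promoter that drives recombination in PreASKO mice is not given in the sources used here. With 1 pooled library per genotype the spread between mice is unknown, so no test was made, and every difference below compares 2 libraries.

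These families of ligands and receptors are known for guiding growing axons, and they also act between cells of vessels, bone, immune tissue and fat. Semaphorins signal through plexins, alone or with neuropilins, and often cause the receiving cell to withdraw its edge. Ephrins are bound to the membrane and signal to Eph receptor tyrosine kinases on the neighbouring cell, with a return signal into the ephrin-bearing cell. Slit proteins bind Robo receptors, and netrins bind Unc5 receptors, DCC and neogenin. In adipose tissue of mice, semaphorin 3E, netrin-1 and Slit2 have each been tied to macrophages, vessels or thermogenic fat.

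The PreASKO library held 37597048 counts and the floxed library 61761645, so low genes are less precise in the PreASKO library. Sox9, the targeted gene, stood at 17.0 CPM (counts of the gene per 1e6 counts of its library) in the PreASKO library and 28.6 CPM in the floxed library, a ratio of 0.595 (95% interval 0.542 to 0.651). Counts per gene do not show whether the remaining Sox9 RNA carries the deleted part. Intervals here are exact binomial ones and cover counting error only. Xist, which female cells transcribe from their silenced X, stood at 745 CPM in the PreASKO library and 3.24 CPM in the floxed library, although both are labelled male. The summed level of 4 genes of the Y chromosome was 70.5 CPM in the PreASKO library and 90.8 CPM in the floxed library. A difference in sex between the libraries cannot be told apart from genotype in any ratio below. All 13 stromal markers were measured, among them Pdgfra at 603 CPM in the PreASKO library and 716 CPM in the floxed library. Macrophage markers were higher in the PreASKO library in all 14 measured cases. Their median log2 ratio was 0.88, with a summed level of 2818 CPM in the PreASKO library against 1478 CPM in the floxed library. Of 11 measured endothelial markers, 9 were higher (median 0.66), with sums of 502 CPM in the PreASKO library and 483 CPM in the floxed library. Most of these sums was Lyve1, Tek and Eng. They stood at 247, 147 and 65.0 CPM in the PreASKO library and 239, 154 and 67.8 CPM in the floxed library. No row of either list was at 0 in either library. Medians of the other lists were -0.10 for stromal (13 measured), -0.12 for mural (7) and -0.27 for Schwann and nerve markers (5). They were -0.17 for neutrophil and mast cell (3), -0.49 for mesothelial (2) and -0.87 for mature adipocyte markers (9). The summed adipocyte level ran the other way, at 532 CPM in the PreASKO library and 381 CPM in the floxed library, since it includes Fabp4 at 443 CPM in the PreASKO library and 216 CPM in the floxed library. Of the T, NK and B cell list only Cd4 and Cd79b were measured, both higher, while under the minimum Cd3e had 1 count in the PreASKO library and 91 in the floxed library. No epithelial marker reached the minimum.

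Most of these genes were present at similar levels in both libraries, and a few stood apart. Of 61 members, 49 had a mean of at least 1 CPM and are called measured. On the log2(CPM + 1) scale, which shrinks the differences of low genes, 3 of 49 were at least 2-fold higher in the PreASKO library (6.12%, against 2.11% of all 13684 measured genes). These were Slit2, Sema3g and Plxnc1. Sema5b was the 1 member at least 2-fold lower (2.04%, against 1.52% of all genes). At 1.5-fold, 6 members were higher (12.2%, against 7.89%) and 5 were lower (10.2%, against 8.18%). Below 0 by any amount lay 31 of 49 members (63.3%, against 54.5%), and above it 18 (36.7%, against 45.5%). The median log2 ratio was -0.10 for the members and -0.04 for all measured genes. Counting intervals lay wholly above 1 for 13 members (26.5%, against 33.4% of all genes) and wholly below 1 for 23 (46.9%, against 41.4%). Single families held few measured genes. All measured EphB (5), netrin (3), Unc5 (2), class 5 semaphorin (2) and ephrin-B (2) genes lay below 0, as did 54.5% of all genes. All measured Slit (2) and Robo (2) genes and Sema7a lay above it. Class 3, 4 and 6 semaphorins, ephrin-A, plexin C and D and Slit genes each held 1 member at least 1.5-fold higher, as were 7.89% of all genes.

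**Figure D1:**
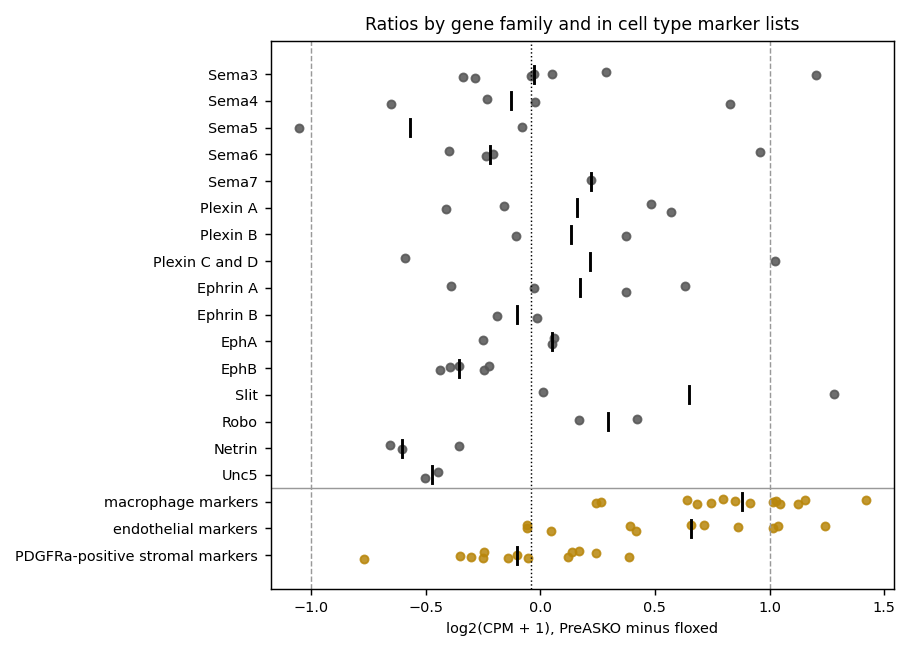
Log2(CPM + 1) in PreASKO minus floxed (x axis) for each measured gene, by family (grey points) and for 3 cell type marker lists (gold points). Thick ticks are medians, the dotted line is the median of all measured genes (-0.04) and dashed lines mark 2-fold. All 5 EphB, 3 netrin, 2 Unc5, 2 Sema5 and 2 Ephrin B points lie left of 0. All 14 macrophage markers lie right of it, as do the Slit, Robo and Sema7 points.

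Among the secreted class 3 semaphorins, which act through neuropilins and A-type plexins, the abundant genes were close between libraries and a scarce one was not. Sema3c stood at 618 CPM in the PreASKO library and 752 CPM in the floxed library, a ratio of 0.821 (0.808 to 0.834). By the raw count alone it stood at 1591 CPM in the PreASKO library and 1791 CPM in the floxed library. By the repeat-distributed count alone it stood at 303 CPM in the PreASKO library and 460 CPM in the floxed library. It was the most abundant member per length too, at 112 CPM per kb of exon in the PreASKO library and 137 CPM per kb in the floxed library. Sema3b followed at 145 CPM in the PreASKO library and 149 CPM in the floxed library, a difference within counting error (ratio 0.973, interval 0.940 to 1.01). Sema3d stood at 84.4 CPM in the PreASKO library and 69.2 CPM in the floxed library (ratio 1.22, 1.17 to 1.28). Sema3e, whose product binds plexin D1 without a neuropilin, stood at 8.78 CPM in the PreASKO library and 11.4 CPM in the floxed library (ratio 0.772, 0.675 to 0.881). Sema3a, Sema3c, Sema3d and Sema3e lie near each other on chromosome 5, between 12383161 and 17730268 (mm10), and their ratios ran from 0.772 to 1.22 without a shared direction. Sema3a (ratio 1.04) and Sema3f (0.978) had intervals that hold 1.

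Sema3g was the exception in that class. This semaphorin, known from arterial endothelium, lies on chromosome 14 from 31217873 to 31230352 (mm10; Entrez ID 218877). It had 289 counts or 7.69 CPM in the PreASKO library and 171 counts or 2.77 CPM in the floxed library, a ratio of 2.78 (2.29 to 3.37). Endothelial markers were higher in the same library in 9 of 11 cases, and their part in the Sema3g difference was not tested. Their sums, mostly Lyve1, Tek and Eng, were 502 CPM in the PreASKO library and 483 CPM in the floxed library. In bulk RNA, more cells of a type and more RNA per cell cannot be told apart. The call also rested on one deposited column. By the raw count alone, Sema3g stood at 26.7 CPM in the PreASKO library and 6.13 CPM in the floxed library, while by the repeat-distributed count alone it stood at 1.55 CPM in the PreASKO library and 1.83 CPM in the floxed library, where it had 44 counts in the PreASKO library and 88 in the floxed library.

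Stretches before a transcription start were taken for the members past 2-fold, and those of Sema3g and Slit2 are shown. Those of Plxnc1 and Sema5b are not printed because they overlap an exon or the outermost start of the same gene. Each run covers 200 bases, from 250 to 51 bases before the start listed in the RefSeq promoter entry (build GRCm38.p6, on which mm10 is based), written 5′ to 3′ on the plus strand, which is the strand of both genes. The Sema3g run lies at chr14:31217623-31217822 and the Slit2 run at chr5:47982905-47983104. The Slit2 run lies within the annotated gene span, before an internal start, since the outermost RefSeq start of Slit2 is at 47981291. Capitals mark any match, on either strand, to TGACAG (a Meis word), ACAATG or AACAAT (core words of SOX binding) or CACGTG (an E-box).
Sema3g: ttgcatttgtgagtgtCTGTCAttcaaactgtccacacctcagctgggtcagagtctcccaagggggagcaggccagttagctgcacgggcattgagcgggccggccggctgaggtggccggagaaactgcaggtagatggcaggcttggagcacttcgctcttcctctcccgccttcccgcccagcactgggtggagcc
Slit2: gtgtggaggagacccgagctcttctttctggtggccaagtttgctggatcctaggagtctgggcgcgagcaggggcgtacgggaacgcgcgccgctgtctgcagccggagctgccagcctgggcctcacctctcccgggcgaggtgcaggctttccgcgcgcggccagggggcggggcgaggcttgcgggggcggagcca

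The Sema3g run holds 1 match, CTGTCA, the reverse complement of the Meis word, which begins 234 bases before the start. The Slit2 run holds none of these words, and its GC content is 71.5%, against 62.0% in the Sema3g run. Of the stretches not printed, that of Plxnc1 holds 1 match, ACAATG, which begins 125 bases before the start. That of Sema5b holds none. RefSeq promoter entries existed for 52 of 61 members, with 68 starts. In the 250 bases before these starts, TGACAG was present in 16.2%, against 14.0% of 13622 starts of measured genes. ACAATG was present in 10.3%, against 6.38%, AACAAT in 4.41%, against 5.37%, and CACGTG in 4.41%, against 8.02%. Any of these words occurred before 27.9% of member starts and 28.2% of starts of measured genes, so the share was near the background. A match describes letters and not a bound site.

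Of the membrane-bound semaphorins, Sema4a and Sema6a were the higher ones and Sema5b and Sema4c the lower ones in the PreASKO library. Sema4a, which encodes a ligand that dendritic cells and macrophages present to T cells, stood at 63.5 CPM in the PreASKO library and 35.4 CPM in the floxed library, a ratio of 1.80 (1.69 to 1.90). Macrophage markers were higher in all 14 measured cases in that library, with sums of 2818 CPM in the PreASKO library and 1478 CPM in the floxed library, and their part in the Sema4a difference was not tested. Sema4c, a ligand of plexin B2, stood at 20.8 CPM in the PreASKO library and 33.3 CPM in the floxed library (ratio 0.625, 0.575 to 0.679). Sema4b differed less, at 34.1 CPM in the PreASKO library and 40.2 CPM in the floxed library. Sema4d, the classical ligand of plexin B1, had an interval that holds 1 (ratio 0.983, 0.862 to 1.12).

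Class 5 semaphorins carry thrombospondin repeats, and their 2 genes parted. Sema5b (chromosome 16, 35541154 to 35664261; Entrez ID 20357) had 165 counts or 4.39 CPM in the PreASKO library and 629 counts or 10.2 CPM in the floxed library, a ratio of 0.431 (0.361 to 0.512). All of its counts were repeat-distributed, so the raw count gives no second value. Sema5a was more abundant and within counting error, at 43.7 CPM in the PreASKO library and 46.3 CPM in the floxed library (ratio 0.944, 0.888 to 1.003).

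Class 6 semaphorins, transmembrane ligands of A-type plexins, were led by Sema6d at 47.5 CPM in the PreASKO library and 54.9 CPM in the floxed library. Sema6a stood at 33.1 CPM in the PreASKO library and 16.5 CPM in the floxed library. Its ratio was 2.00 (1.84 to 2.18), but its log2(CPM + 1) difference was 0.96, just short of the 2-fold mark. The authors' deposited table gives Sema6a a fold of 2.05. Sema6c stood at 10.96 CPM in the PreASKO library and 14.8 CPM in the floxed library (ratio 0.741, 0.658 to 0.834), and Sema6b at a ratio of 0.831. Sema7a, the lipid-anchored ligand of plexin C1 and integrins, was low in both, at 3.17 CPM in the PreASKO library and 2.57 CPM in the floxed library (ratio 1.23, 0.961 to 1.57).

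**Figure D2:**
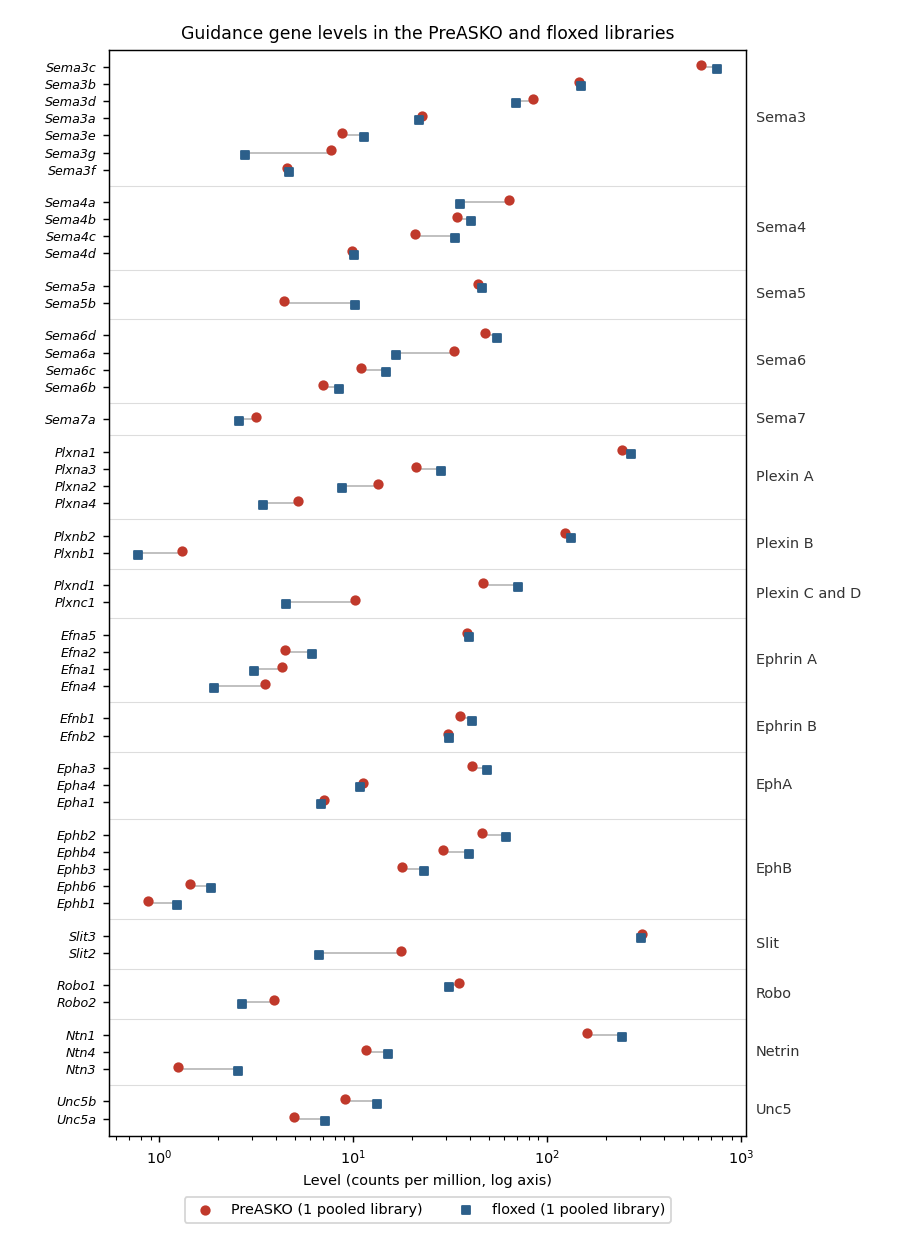
Level of each of the 49 measured members in CPM (x axis, log scale), in the PreASKO library (red circles) and the floxed library (blue squares), grouped by family. Each library is 1 pool, so no error bar can be drawn. Sema3c lies furthest right, at 618 CPM in the PreASKO library and 752 CPM in the floxed library, and the widest gaps are those of Slit2, Sema3g, Plxnc1 and Sema5b.

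Plexins, the receptors of the semaphorins, showed little difference among their abundant members. Plxna1 stood at 243 CPM in the PreASKO library and 271 CPM in the floxed library (ratio 0.896, 0.873 to 0.919). Plxnb2 stood at 124 CPM in the PreASKO library and 133 CPM in the floxed library (ratio 0.930, 0.897 to 0.964). The co-receptor genes Nrp1 and Nrp2 had ratios of 0.903 and 0.852, with Nrp1 at 227 CPM in the PreASKO library and 251 CPM in the floxed library. An opposite-strand model overlaps 10.7% of the Plxna1 exon length, and whether counting used strand is not stated.

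Less abundant plexins diverged. Plxnd1, a receptor of semaphorin 3E with a known role in vessel patterning, stood at 46.5 CPM in the PreASKO library and 70.6 CPM in the floxed library, a ratio of 0.659 (0.623 to 0.697). Endothelial markers were higher in the PreASKO library in 9 of 11 cases, and their part in the Plxnd1 difference was not tested. Plxnc1, a receptor expressed on leukocytes (chromosome 10, 94790866 to 94945015; Entrez ID 54712), had 383 counts or 10.2 CPM in the PreASKO library and 278 counts or 4.50 CPM in the floxed library, a ratio of 2.26 (1.93 to 2.65). Ptprc, the pan-leukocyte gene, likewise stood at 21.8 CPM in the PreASKO library and 10.04 CPM in the floxed library, and its part in the Plxnc1 difference was not tested. Plxnc1 had a log2 ratio of 1.02, against 1.58 by the raw count alone and 0.50 by the repeat-distributed count alone. Plxna2 stood at 13.5 CPM in the PreASKO library and 8.73 CPM in the floxed library (ratio 1.54, 1.36 to 1.74). Plxna3, on the X chromosome, stood at 20.9 CPM in the PreASKO library and 28.2 CPM in the floxed library (ratio 0.742, 0.681 to 0.807). Efnb1, the other X-linked member measured, had a ratio of 0.874 (0.817 to 0.934), beside the difference in Xist. Plxnb3, also X-linked but under the minimum, ran the other way. It had 61 counts in the PreASKO library and 16 in the floxed library (ratio 6.26, 3.57 to 11.6).

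Ephrin genes were close between libraries where they were abundant. Efna5, a GPI-anchored ligand, stood at 38.5 CPM in the PreASKO library and 39.3 CPM in the floxed library (ratio 0.982, 0.919 to 1.05). Of the transmembrane ligands, Efnb1 stood at 35.6 CPM in the PreASKO library and 40.7 CPM in the floxed library. Efnb2, an arterial marker, stood at 30.9 CPM in the PreASKO library and 31.2 CPM in the floxed library (ratio 0.990, 0.920 to 1.07). Efna2 stood at 4.44 CPM in the PreASKO library and 6.14 CPM in the floxed library (ratio 0.724, 0.600 to 0.871). Efna1 and Efna4, picked out after their values were seen, were low and higher in the PreASKO library. They lie on either side of Efna3 on chromosome 3, which had 5 counts in the PreASKO library and 1 in the floxed library. Efna4 stood at 3.51 CPM in the PreASKO library and 1.91 CPM in the floxed library (ratio 1.84, 1.42 to 2.38), and Efna1 at 4.31 CPM in the PreASKO library and 3.09 CPM in the floxed library (ratio 1.39, 1.12 to 1.73). A model on the opposite strand covers 10.5% of the Efna4 exon length.

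Eph receptors of the B type were lower in the PreASKO library by similar small amounts. All 5 lay below 0, with a median log2 ratio of -0.36 and a range of -0.44 to -0.22, where 54.5% of all measured genes lay below 0. None reached 1.5-fold. Ephb2 stood at 46.2 CPM in the PreASKO library and 61.1 CPM in the floxed library (ratio 0.756, 0.713 to 0.800). Ephb4, the venous partner of ephrin-B2, stood at 28.8 CPM in the PreASKO library and 39.5 CPM in the floxed library (ratio 0.731, 0.680 to 0.785). Ephb3 stood at 17.8 CPM in the PreASKO library and 23.1 CPM in the floxed library (ratio 0.772, 0.703 to 0.847). Ephb6, which lacks kinase activity, and Ephb1 were near 1 CPM and their intervals hold 1. Summed over the family, EphB RNA came to 95.1 CPM in the PreASKO library and 127 CPM in the floxed library. Of the receptors of the A type, Epha3 had a ratio of 0.837 (0.787 to 0.890) at 40.8 CPM in the PreASKO library and 48.8 CPM in the floxed library, and Epha4 (1.05) and Epha1 (1.04) had intervals that hold 1.

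**Figure D3:**
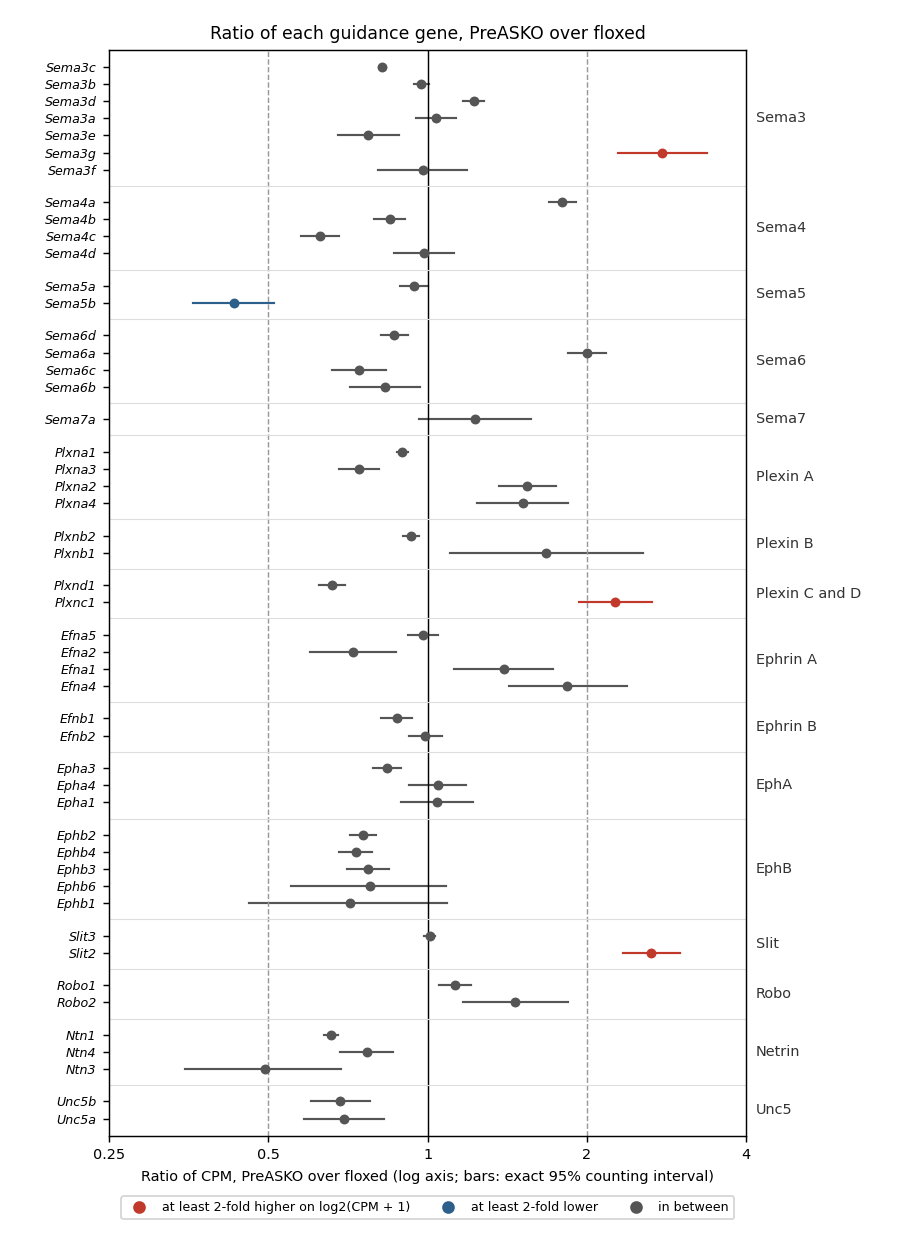
Ratio of CPM, PreASKO over floxed (x axis, log scale), for each of the 49 measured members, with exact 95% counting intervals as bars. Dashed lines mark ratios of 0.5 and 2, and colours mark the members at least 2-fold apart on the log2(CPM + 1) scale. Slit2, Sema3g and Plxnc1 lie above a ratio of 2 and Sema5b lies below 0.5, while Sema6a at 2.00 and Ntn3 at 0.492 do not pass on the scale with a pseudocount.

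All 4 measured Slit and Robo genes lay above 0, where 45.5% of all genes did. With both counts added, however, the abundant ligand was equal between libraries within counting error. Slit3 was the second member per length, at 58.7 CPM per kb in the PreASKO library and 58.2 CPM per kb in the floxed library. It stood at 307 CPM in the PreASKO library and 304 CPM in the floxed library (ratio 1.01, 0.985 to 1.03). By the raw count alone it stood at 164 CPM in the PreASKO library and 108 CPM in the floxed library. By the repeat-distributed count alone it stood at 353 CPM in the PreASKO library and 359 CPM in the floxed library. Slit2 had the highest log2 ratio of all measured members, 1.28. It lies on chromosome 5 from 47981291 to 48307735 (Entrez ID 20563), and the stretch before one of its internal starts is printed above. It had 661 counts or 17.6 CPM in the PreASKO library and 410 counts or 6.64 CPM in the floxed library, a ratio of 2.65 (2.34 to 3.00). The authors' deposited table gives Slit2 a fold of 2.69. Every Slit2 count was repeat-distributed. Of the receptors, Robo1 stood at 35.1 CPM in the PreASKO library and 31.2 CPM in the floxed library (ratio 1.13, 1.05 to 1.21), and Robo2 was scarce (ratio 1.46, 1.16 to 1.84).

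All 5 measured netrin and Unc5 receptor genes were lower in the PreASKO library, where 54.5% of all measured genes lay below 0. Ntn1 encodes netrin-1, and its gene lies on chromosome 11 from 68209364 to 68386826. It had 5991 counts or 159 CPM in the PreASKO library and 14998 counts or 243 CPM in the floxed library, a ratio of 0.656 (0.637 to 0.676). Ntn1 was lower in each deposited column as well, at 601 CPM in the PreASKO library and 1004 CPM in the floxed library by the raw count alone, and at 16.5 CPM in the PreASKO library and 29.1 CPM in the floxed library by the repeat-distributed count alone. Ntn4, a basement membrane netrin, stood at 11.6 CPM in the PreASKO library and 15.1 CPM in the floxed library (ratio 0.768, 0.684 to 0.861). Ntn3 was scarce, with 47 counts in the PreASKO library and 157 in the floxed library (ratio 0.492, 0.347 to 0.685), and its exons overlap those of neighbouring genes over 4.53% of their length. Of the receptors, Unc5b stood at 9.07 CPM in the PreASKO library and 13.3 CPM in the floxed library (ratio 0.684, 0.601 to 0.777), and Unc5a at 4.95 CPM in the PreASKO library and 7.11 CPM in the floxed library (ratio 0.696, 0.583 to 0.828). The 5 measured genes had a median log2 ratio of -0.50 and a range of -0.65 to -0.35. On the log2(CPM + 1) scale, Ntn1 and Ntn3 of these 5 were at least 1.5-fold lower, as were 8.18% of all genes. None passed 2-fold on that scale, although the CPM ratio of Ntn3 was 0.492.

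Partners of these pathways outside the families differed little. Of 78 partner genes with a row, 71 were measured, 2 were at least 2-fold higher (as were 2.11% of all genes) and 1 was at least 2-fold lower (as were 1.52% of all genes), with a median log2 ratio of -0.13. Below 0 lay 48 of 71 partners, where 54.5% of all genes did. By list, the counts below 0 were 6 of 9 for neuropilins and other semaphorin receptors, 14 of 19 for semaphorin and plexin signalling, 10 of 18 for ephrin and Eph signalling, 10 of 14 for Slit and Robo signalling and 8 of 11 for netrin receptors and signalling. Past 2-fold were 2 scarce guanine exchange factor genes of Eph signalling, in opposite directions, and Itga6. Arhgef15, described in endothelium, stood at 2.85 CPM in the PreASKO library and 0.793 CPM in the floxed library, whereas Ngef stood at 0.931 CPM in the PreASKO library and 3.11 CPM in the floxed library. Other exchange factor genes of that list did not pass, with ratios of 1.15 for Vav2, 0.993 for Vav3 and 0.775 for Tiam1. Itga6, an integrin subunit gene, stood at 11.7 CPM in the PreASKO library and 5.29 CPM in the floxed library.

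The split between the deposited columns varied with the gene model, which bears on how far single ratios can be read. The raw count held a median of 77.2% of counts in the 11 members that have 1 RefSeq transcript model and 0.383% in the 37 with more, among members with at least 100 counts over both libraries. The ranges overlapped, from 5.03% to 91.1% with 1 model and from 0% to 72.8% with more. Across all genes the median was 51.8% at 1 model (3464 genes), 2.38% at 2 and 0.367% at 6 or more. In 21 members no count was raw in either library. Of 14 named members with at least 20 counts in each column and library, 10 had ratios on the same side of 0 in both columns. Sema3g, Epha1, Slit3 and Epha3 did not.

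**Figure D4:**
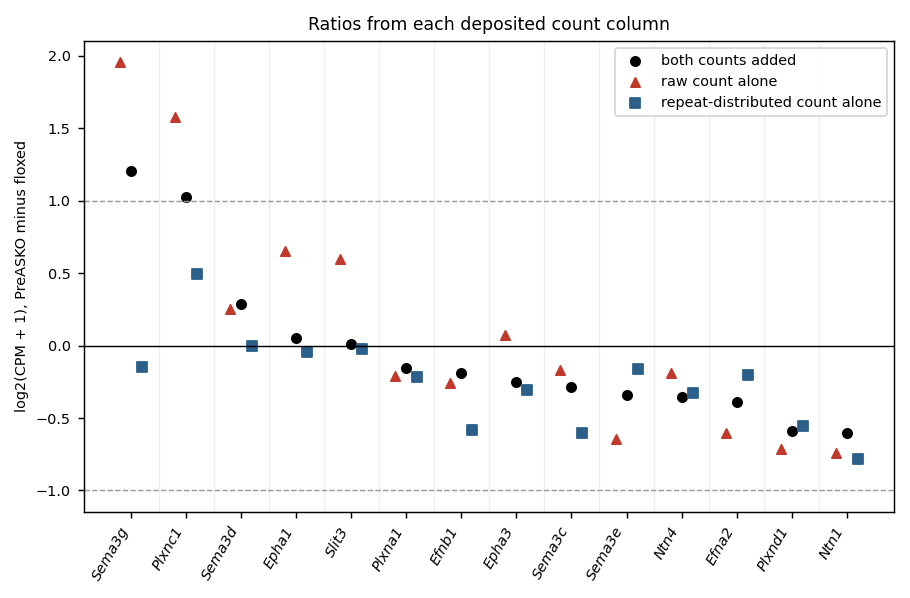
Log2(CPM + 1) in PreASKO minus floxed (y axis) for the 14 named members with at least 20 raw and 20 repeat-distributed counts in each library, from both counts added (black), the raw count alone (red) and the repeat-distributed count alone (blue), each scaled to its own column total. The columns are furthest apart for Sema3g, at 1.96 by raw count and -0.15 by repeat-distributed count, and near each other for Plxna1, Plxnd1 and Ntn1.

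The remaining 12 members lay under the minimum of 1 CPM. Plxnb3 had 61 counts in the PreASKO library and 16 in the floxed library (ratio 6.26, 3.57 to 11.6), and Robo4, a receptor of endothelial cells, had 31 in the PreASKO library and 16 in the floxed library (ratio 3.18, 1.69 to 6.23). Sema4f had 13 counts in the PreASKO library and 0 in the floxed library, where 0 counts allow up to 0.0486 CPM (3 counts), which makes it at least 7.12-fold higher if the 13 counts are taken as exact, while the exact interval of the ratio begins at 5.01. Sema4g had 16 counts in the PreASKO library and 84 in the floxed library (ratio 0.313, 0.171 to 0.538), and Efnb3 had 17 in the PreASKO library and 80 in the floxed library (ratio 0.349, 0.194 to 0.594). The other 7, namely Efna3, Epha2, Epha5, Epha7, Slit1, Unc5c and Unc5d, had intervals that hold 1.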

How the data were processed

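Per the submitters' processing notes the genome build was mm10. The sources used here name no aligner, counting program, annotation or strand setting. Per the file headers, the authors' values are a raw count in whole numbers and a repeat-distributed count, treated as an estimated count because it need not be whole. What repeat-distributed means is not stated. The authors' deposited fold change is a ratio of PreASKO over floxed.

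Both counts were added and scaled to CPM of the library total. For 97.9% of 11983 genes with at least 100 counts in each library, the authors' deposited fold divided by the ratio of these sums lay within 5% of its median, 1.68. The library totals differ by a factor of 1.64, so the authors' folds exceed the CPM ratios used here by a median factor of 1.02. Among 23669 rows, 24 showed a date instead of a symbol and were named by Entrez ID, and 21 IDs with several rows were summed, which left 23647 genes. Estimated counts were rounded for exact 95% intervals (scipy 1.17.1). Differences are log2(CPM + 1) for genes averaging 1 CPM or more, and the 2-fold mark is the one in the series design text. Lengths are unions of GENCODE M21 basic exons, and gene coordinates and promoters are from RefSeq. The procedure was tested on simulated counts that held counting error alone. That simulation cannot show how it fares with spread between mice or with count columns that disagree.

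Named members are those past 2-fold and, within each family and above 5 CPM, the 3 most abundant and the 2 with the largest ratios. The members, lists and this rule were chosen with earlier results of these data known. Alternatives were 2 pseudocounts, 2 minimums, 2 cutoffs, each count alone, 2 other scalings (median of ratios, and TMM in edgeR 4.0.16) and the authors' fold.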

Additional observations from a re-analysis of the deposited data

How the results depend on the processing

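No paired analysis was possible because each genotype has 1 library, and for the same reason no library could be left out. Against 3 members at least 2-fold higher and 1 lower in the PreASKO library (2.11% and 1.52% of all genes), a pseudocount of 5 gave 0 and 0 (0.424% and 0.205%), 6 and 5 lay past 1.5-fold (7.89% and 8.18%), 0 and 0 past 3-fold (0.219% and 0.161%), and the authors' deposited fold put 4 and 2 past 2-fold (4.36% and 3.46%). The larger pseudocount shrinks the ratios of low genes, and the cutoffs change the ratio required. The repeat-distributed count alone gave 4 and 1 (2.39% and 1.89%), but of the 3 higher members it kept only Slit2, and Sema3g reversed there to -0.15. It added Plxna4, Plxnb3 and Sema6a as higher. The raw count alone gave 3 and 1 (5.13% and 10.0%), with 25 members measured. It kept Sema3g and Plxnc1 and added Sema4d as higher and Ntn3 as lower. It could not call Slit2 or Sema5b, which have no raw counts in either library. The causes of the other changes were not tested. Both other scalings shifted log2 ratios by under 0.1 and kept all 4 calls, with 27 in place of 31 members below 0. The median of all measured genes moved toward 0 as well, from -0.041 to -0.008 by median of ratios and -0.007 by TMM. The share of all genes below 0 was not counted under these scalings. The median of the members ran from -0.19 to -0.07 over its alternatives. Of 36 named members, 25 kept their sign in every alternative run, among them Ntn1 (-0.78 to -0.57, 7 alternatives) and Ephb4 (-0.45 to -0.39, 6 alternatives). Members without raw counts, Ephb4 among them, had no raw-count alternative. Their repeat-distributed count alone is the same count on another total, so the columns give no second value for their sign. Counts under about 100 limit single low genes.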
